A study of Mus musculus with 8 samples.

Results

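Ly6a, Ly6e, Clu, Anxa1 and Aqp8 are 5 of the 26642 rows in a count table from CT26 cells, picked by gene symbol. The first 4 are markers of fetal or regenerating gut epithelium that have been linked to the coactivator YAP, and Aqp8 encodes a water channel of mature colonocytes. All 5 passed the filter on low counts and are among the 13265 rows fitted. They were picked with the difference between the genotypes already known, so their own differences are given as a description, with no test. CT26 is a transplantable mouse colon carcinoma line from a BALB/c mouse, grown here in serum-containing RPMI medium. The tested cells carried a Tead1/4 knockout (4 libraries, KO1 to KO4), and the cells they are compared with were unedited CT26 cells, labelled WT (4 libraries, WT1 to WT4). Whether the knockout cells are 1 clone or a pool, which parts of the genes were edited, and whether replicates were separate cultures is not given in the labels, so the spread between libraries may be technical.

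When gut epithelium is injured, surviving cells can switch off the gene programme of resting stem cells and switch on genes of the fetal gut. YAP and TAZ, which bind DNA through TEAD proteins, are known drivers of that switch in the mouse intestine, and Ly6a, Clu and Anxa1 are widely used to mark it. Colonocytes are the absorptive cells of the colon surface. They take up salt and water and carry Aqp8 together with carbonic anhydrases and the chloride exchanger gene Slc26a3.

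Total counts per library lay between 29679405 and 32774905. Tead1 stood at 67.5 ± 12.4 CPM (read counts scaled to a common library total with TMM factors; SD, n = 4) in knockout cells, against 206 ± 80.8 CPM in WT (edgeR adjusted p = 0.00217). Tead4 stood at 29.3 ± 6.08 CPM in the knockout libraries, against 47.8 ± 12.2 CPM in WT (edgeR adjusted p = 0.0261), a call lost without KO2, KO3, WT1 or WT4 (adjusted p = 0.0601 to 0.08), by upper-quartile scaling (0.0692), by library size alone (0.08), and with WT2 and WT3 as the only WT libraries (0.18). Of the genes for their cofactors, Yap1 was higher in the knockout libraries (log2 fold change 0.65, edgeR adjusted p = 0.00507). The TAZ gene Wwtr1 did not pass the test (0.08, edgeR adjusted p = 0.776). The other TEAD genes, named after their values were seen, did not pass either. Tead2 was at 104 ± 17.5 CPM in the knockout libraries and 109 ± 11.9 CPM in WT (edgeR adjusted p = 0.756). Tead3 was at 55.2 ± 0.735 CPM in the knockout libraries and 68.4 ± 13.3 CPM in WT (adjusted p = 0.136). The WT libraries formed 2 close pairs, WT1 with WT4 and WT2 with WT3: their chi-square per degree of freedom over rows was 34.7 and 35, against 201 to 242 for the other WT pairs. KO1 stood apart from the other knockout libraries in its mitotic genes, whose mean level lay 0.46 above the mean of all 8 libraries on the log2 scale, against -0.83 to -1.96 in KO2 to KO4. Of 13265 rows, 41.6% were called at an edgeR adjusted p under 0.05, 20.9% as higher and 20.6% as lower in the knockout libraries. KO1 also had fewer rows with a count, 14345, against 17759 to 17948 in KO2 to KO4 and 14566 to 15430 in WT, at similar totals. The 4 knockout values lay wholly above the 4 WT values in 21.1% of rows.

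As epithelium, these cells lacked most defining genes in both genotypes. Epcam, the gene of an epithelial adhesion molecule, had no count in any library, and Cdh1, which encodes E-cadherin, had 10 counts over the knockout libraries and 0 over WT, with none in KO1. Of 16 epithelial identity genes 4 were fitted and 1 was called (25%, against 41.6% of all rows). This was Krt18, a simple keratin gene, which rose (76.3 ± 8.65 CPM in the knockout libraries, 38.5 ± 2.93 CPM in WT, edgeR adjusted p = 0.00107). Vim, which encodes the mesenchymal filament protein vimentin, was at 2810 ± 680 CPM in the knockout libraries, against 2910 ± 505 CPM in WT. In bulk RNA, a change in the share of cells that express a gene and a change in the amount per cell cannot be told apart.

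Ly6a encodes Sca-1, a surface protein held by a glycolipid anchor, and it marks regenerating colon epithelium in mice. The gene (ENSMUSG00000075602) lies on the minus strand of chromosome 15 (GRCm38, 74994877 to 74998031). Its level was 37.2, 28.7, 75.1 and 72.2 CPM in KO1 to KO4, against 1.99, 7.88, 7.18 and 2.70 CPM in WT1 to WT4. The groups did not overlap, KO3 and KO4 stood above KO1 and KO2, and WT2 and WT3 stood above WT1 and WT4. The counts behind these values were 1177, 941, 2581 and 2362 in the knockout libraries and 54, 231, 213 and 76 in WT, so the gaps within each genotype exceed counting error. WT1, for example, had a 95% exact Poisson interval of 1.49 to 2.59 CPM, and WT2 one of 6.90 to 8.97 CPM. The fitted log2 fold change, knockout minus WT, was 3.43 (SE 0.51), or 10.8-fold, and 2.39% of fitted rows had a larger one. With WT1 and WT4 as the only WT libraries it was 4.49, and with WT2 and WT3 as the only ones it was 2.80. The lowest knockout library was still 3.63 times the highest WT library.

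Ly6e encodes a related anchored protein, known as an interferon-inducible factor that restricts some viruses. It (ENSMUSG00000022587) lies on the plus strand of chromosome 15 (74955051 to 74959905), 35.0 kb from Ly6a, with Ly6i as the only protein-coding gene between them. Its level was 1760, 1150, 1060 and 1010 CPM in KO1 to KO4, against 2690, 1340, 995 and 2160 CPM in WT1 to WT4. The groups overlapped: WT1 and WT4 were above every knockout library and WT3 was below all of them. The log2 fold change was -0.52 (SE 0.33). It was -0.97 with WT1 and WT4 as the only WT libraries and turned to 0.08 with WT2 and WT3 as the only ones. Ly6e was the 1 member that the fit across all rows did not call, and the 1 member whose mean was lower in the knockout libraries. The plot of member levels by library shows these values.

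**Figure D1:**
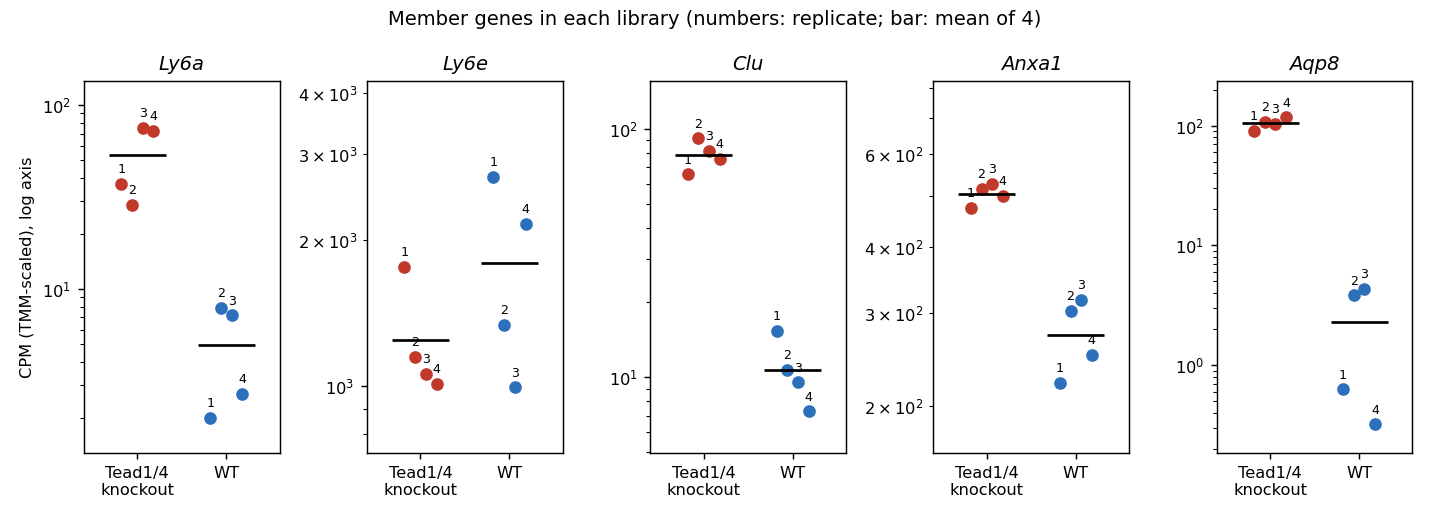
Level of each member gene in every library, in TMM-scaled CPM on a log axis whose range differs between panels. Points are libraries numbered by replicate, Tead1/4 knockout left of WT, and the bar is the mean of 4. The 4 knockout points lie above all WT points for Ly6a, Clu, Anxa1 and Aqp8, and the groups overlap for Ly6e, where WT1 reached 2690 CPM and WT3 stood at 995 CPM.

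Clu encodes clusterin, a secreted chaperone, and marks rare revival stem cells that appear after injury in the mouse intestine. The gene (ENSMUSG00000022037) lies on the plus strand of chromosome 14 (GRCm38, 65968483 to 65981547). Its level was 65.5, 91.5, 81.4 and 75.4 CPM in KO1 to KO4, against 15.4, 10.7, 9.53 and 7.28 CPM in WT1 to WT4. The groups did not overlap and the lowest knockout library was 4.25 times the highest WT library. The log2 fold change was 2.87 (SE 0.24), or 7.31-fold. Clu did not split the WT libraries into the pairs seen for Ly6a: WT1 was highest and WT4 lowest. Its log2 fold change was 2.77 with WT1 and WT4 as the only WT libraries and 2.94 with WT2 and WT3 as the only ones.

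Anxa1 encodes annexin A1, a calcium-dependent membrane-binding protein that signals through formyl peptide receptors and limits inflammation. The gene (ENSMUSG00000024659) lies on the minus strand of chromosome 19 (GRCm38, 20373428 to 20390944). A long non-coding RNA gene on the opposite strand, 1500015L24Rik, overlaps it, and reads of the pair cannot be told apart if strand was not used in counting. The level of Anxa1 was 474, 516, 526 and 499 CPM in KO1 to KO4, against 221, 303, 318 and 250 CPM in WT1 to WT4. It had the smallest spread of the members, with a coefficient of variation of 4.48% in the knockout libraries and 16.6% in WT. Its log2 fold change was 0.88 (SE 0.16), or 1.85-fold, and the lowest knockout library was 1.49 times the highest WT library. Fold changes larger than that of Anxa1 were found for 18.9% of rows, so its difference is common in size in this contrast. It was 1.08 on the log2 scale with WT1 and WT4 as the only WT libraries and 0.68 with WT2 and WT3 as the only ones.

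Aqp8 encodes aquaporin 8, a channel for water that also passes hydrogen peroxide, and in the gut it marks surface colonocytes. The gene (ENSMUSG00000030762) lies on the plus strand of chromosome 7 (GRCm38, 123462291 to 123468004). Its level was 90.1, 107, 103 and 117 CPM in KO1 to KO4, against 0.626, 3.82, 4.31 and 0.319 CPM in WT1 to WT4. This was the largest difference among the members: a log2 fold change of 5.51 (SE 0.70), or 45.7-fold, exceeded by 0.701% of rows. The knockout libraries were close together, with a coefficient of variation of 10.6%, while the highest WT library was 13.5 times the lowest. WT4 held 9 counts, with a 95% exact Poisson interval of 0.146 to 0.606 CPM, and WT3 held 128, with one of 3.60 to 5.13 CPM. The fold therefore depended on the WT libraries used. It was 7.76 on the log2 scale against WT1 and WT4 alone and 4.66 against WT2 and WT3 alone, and even the lowest knockout library was 20.9 times the highest WT library.

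RefSeq promoter windows on GRCm38.p6, from 250 bases before to 50 after the transcript start, were found for 2 of the 5 members, Anxa1 and Aqp8. They are shown because each holds the letters of the core TEAD motif, GGAATG or its complement CATTCC, in capitals. Both are written 5′ to 3′ on the gene's strand, from chr19:20390622-20390921 (minus) and chr7:123462044-123462343 (plus), and are the C57BL/6J reference, from which BALB/c-derived cells can differ.
Anxa1: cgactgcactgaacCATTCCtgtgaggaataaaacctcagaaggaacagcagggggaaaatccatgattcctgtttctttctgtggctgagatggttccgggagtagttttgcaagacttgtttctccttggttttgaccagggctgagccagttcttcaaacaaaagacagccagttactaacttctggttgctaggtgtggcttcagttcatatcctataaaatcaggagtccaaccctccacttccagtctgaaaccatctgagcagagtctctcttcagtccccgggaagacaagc
Aqp8: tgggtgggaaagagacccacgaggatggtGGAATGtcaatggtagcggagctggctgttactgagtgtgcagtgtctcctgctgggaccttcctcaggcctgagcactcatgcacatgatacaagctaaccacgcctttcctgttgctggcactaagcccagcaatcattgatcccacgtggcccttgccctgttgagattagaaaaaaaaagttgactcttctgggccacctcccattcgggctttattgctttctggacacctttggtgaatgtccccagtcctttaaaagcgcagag
The match in Anxa1 begins 236 bases before the RefSeq start and that in Aqp8 begins 221 bases before its own. The position given above for Anxa1, from GENCODE M21, runs to 20390944, so its whole RefSeq window lies inside that gene. Of 32851 promoter windows of the same length in the table, 14.7% hold these letters on either strand. Neither window holds the interferon-stimulated element, GAAA, any 2 bases and GAAA (3.44% of all windows), the STAT motif TTCNNNGAA (8.30%), the AP-1 motif TGANTCA (7.81%) or the heat shock pair TTCNNGAA (8.52%), each searched on both strands. A match describes letters only, and no factor binding was measured here.

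Read against the whole table, 4 of the 5 members were called higher in the knockout libraries by the fit, where 20.9% of all rows were, and in the same 4 the lowest knockout library exceeded the highest WT library, as in 21.1% of rows. Since the members were chosen from this contrast, nothing is drawn from these counts. Scaled by gene length (RPKM, over the union of annotated exons), Ly6e was the most abundant member in both genotypes, at 330 ± 92.2 RPKM in the knockout libraries and 474 ± 203 RPKM in WT (SD, n = 4). Anxa1 followed, at 173 ± 7.76 RPKM in the knockout libraries and 93.8 ± 15.6 RPKM in WT. In the knockout libraries Aqp8 came next at 66.0 ± 7.02 RPKM, then Ly6a at 44.2 ± 19.7 and Clu at 22.8 ± 3.17. The ranges of Aqp8 (57.0 to 73.9 RPKM) and Ly6a (23.8 to 62.3) overlapped there, as did those of Ly6a and Clu (19.1 to 26.6). In WT the order of the lower 3 was Ly6a (4.10 ± 2.51 RPKM), Clu (3.12 ± 0.999) and Aqp8 (1.44 ± 1.32), and their ranges overlapped between neighbours. Aqp8 therefore ranked below Clu in mean level in WT and above it in the knockout libraries. Per length, Ly6e exceeded Ly6a 15.1, 12.8, 4.51 and 4.44 times in KO1 to KO4, against 430, 54.1, 44.1 and 254 times in WT1 to WT4.

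Among the 8 libraries the members followed several patterns, shown in the map of centred levels. Ly6a, Anxa1 and Aqp8 shared the split of the WT libraries, with WT2 and WT3 above WT1 and WT4. Ly6e ran the other way, with WT1 and WT4 highest. The mean level of 30 type I interferon response genes moved with the first pattern: it stood at 1.28, 1.39, 1.65 and 1.71 in KO1 to KO4 and at -2.16, -0.20, -0.96 and -2.71 in WT1 to WT4, on the log2 scale relative to the mean of all libraries. Its part in the levels of Ly6a, Anxa1 and Aqp8 was not tested. Mitotic genes stood at 0.46, -0.83, -1.60 and -1.96 in KO1 to KO4 and between 0.84 and 1.20 in WT. KO1, the highest knockout library for them, was the lowest knockout library for Clu, Anxa1 and Aqp8 and the highest for Ly6e. The members' log2 fold changes without KO1 and without each other library in turn stayed between 3.16 and 3.74 (Ly6a), 2.70 and 3.09 (Clu), 0.79 and 0.95 (Anxa1), 5.12 and 6 (Aqp8) and -0.75 and -0.27 (Ly6e).

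**Figure D2:**
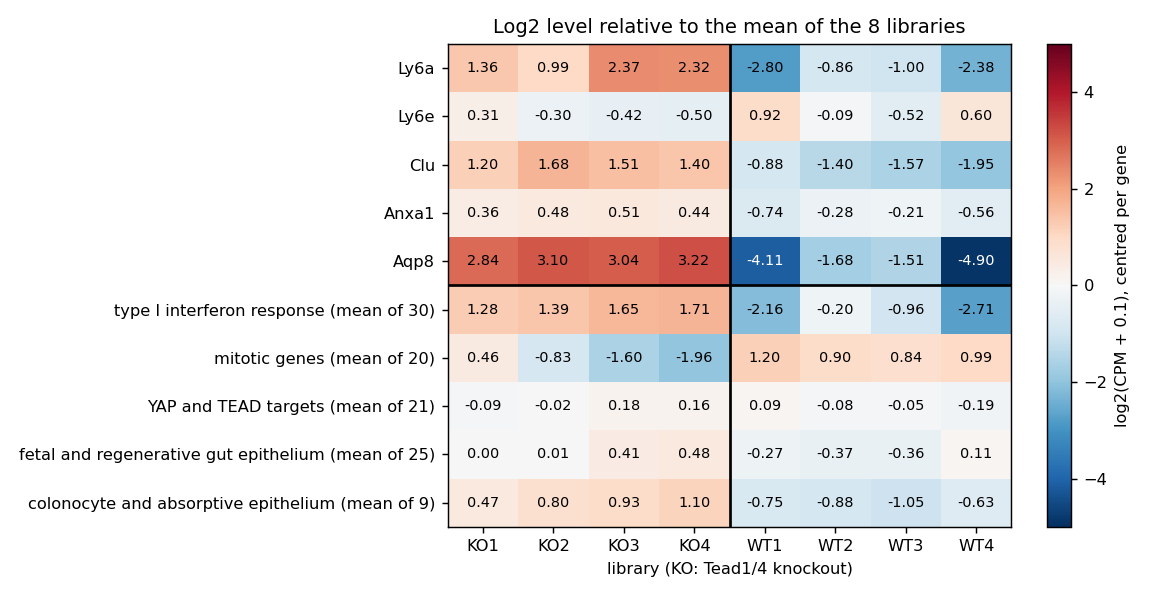
Log2(CPM + 0.1) of each member and the mean of 5 gene lists without the members, relative to the mean of the 8 libraries, which run along the horizontal axis with knockout left of WT. Red is above and blue below that mean. Aqp8 runs between 3.22 in KO4 and -4.90 in WT4, and WT2 and WT3 are less blue than WT1 and WT4 for Ly6a, Anxa1, Aqp8 and the interferon list.

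Likeness to a member was measured as the root mean square difference of centred log2(CPM + 0.1) over the 8 libraries, among 11260 fitted annotated genes. Closest to Ly6a were Ccdc33 (0.19), Plekha4 (0.32) and Rsad2 (0.34). Closest to Aqp8 were Slfn2 (0.39), Ifi27l2a (0.39) and Islr (0.48). Ifi27l2a was at 94.8 CPM on average in the knockout libraries, against 2.93 CPM in WT, where it too was higher in WT2 (5.91) and WT3 (4.21) than in WT1 (1.14) and WT4 (0.461). Clu was nearest to Asap3 (0.21), Slc22a18 (0.23) and Klf2 (0.23), Anxa1 to F8a (0.07), Edem2 (0.08) and Dguok (0.08), and Ly6e to Rogdi, Cat and Pqbp1 (0.14 each). Ccdc33 and Slfn2 had no count in 2 WT libraries, so their places rest on the added 0.1. Between members, the smallest difference was 0.91, found for Ly6a with Clu and for Ly6e with Anxa1, and the largest was 3.59, for Ly6e with Aqp8. The measure is not scaled for size, so 2 genes that vary little can be near without sharing a pattern. Ly6e stood at 0.92 and 0.60 in WT1 and WT4, where Anxa1 stood at -0.74 and -0.56. Their signs also differed in KO2 to KO4 and were the same in KO1, WT2 and WT3.

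Other genes of the fetal and regenerative gut programme were mixed. Of 36 listed beside the members 25 were fitted, and 7 rose, 2 fell and 16 did not pass the test (36% called, against 41.6% of all rows). Their median log2 fold change was 0.10, beside 0.02 for all rows. Krt7, a simple keratin gene, was at 12.9, 6.24, 8.29 and 7.37 CPM in KO1 to KO4 and at 0.478, 0.649, 0.472 and 0.319 CPM in WT1 to WT4. It rose by 4.17 on the log2 scale (SE 0.35, edgeR adjusted p = 0.000185). S100a6, a calcium-binding protein gene, was 2.25-fold higher (488 ± 40.2 CPM in the knockout libraries, 217 ± 102 CPM in WT, edgeR adjusted p = 0.0122). Gja1, which encodes connexin 43 and is high in fetal gut spheroids, fell to 87.5 ± 30.8 CPM in the knockout libraries, against 172 ± 11.1 CPM in WT (edgeR adjusted p = 0.00726). Lamb3, a laminin chain gene, fell to 1.08 ± 0.356 CPM, against 3.14 ± 1.16 CPM in WT (edgeR adjusted p = 0.0122).

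The 5 remaining calls on this list are named after their values were seen. Spp1, the osteopontin gene, was at 3590 ± 990 CPM in the knockout libraries, against 1570 ± 625 CPM in WT (edgeR adjusted p = 0.016). The EGF receptor ligand genes Areg (log2 fold change 2.23), Ereg (1.38) and Hbegf (1.40) and the transcription factor gene Sox9 (1.49) also passed, with edgeR adjusted p between 0.0194 and 0.0378. These 4 calls were loose. Areg lost its call without KO4 or WT1 (adjusted p = 0.0549 and 0.0537), Ereg without KO3, KO4, WT2 or WT3 (0.0699 to 0.0894), Hbegf without any 1 library but KO1 or KO2 (0.0578 to 0.106), and Sox9 without any but KO1 or WT4 (0.067 to 0.0859). With limma-voom Areg (adjusted p = 0.0524) and Hbegf (0.0846) did not pass. Il33, a cytokine gene, and Krt17, a keratin gene, had no count in any of the 8 libraries. Annexin genes Anxa2, Anxa3, Anxa5 and Anxa8 and the surface receptor gene Cd44 did not pass (log2 fold changes between -0.12 and 0.32). With the members counted, 10 of the listed genes were higher, and 6 without KO4.

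**Figure D3:**
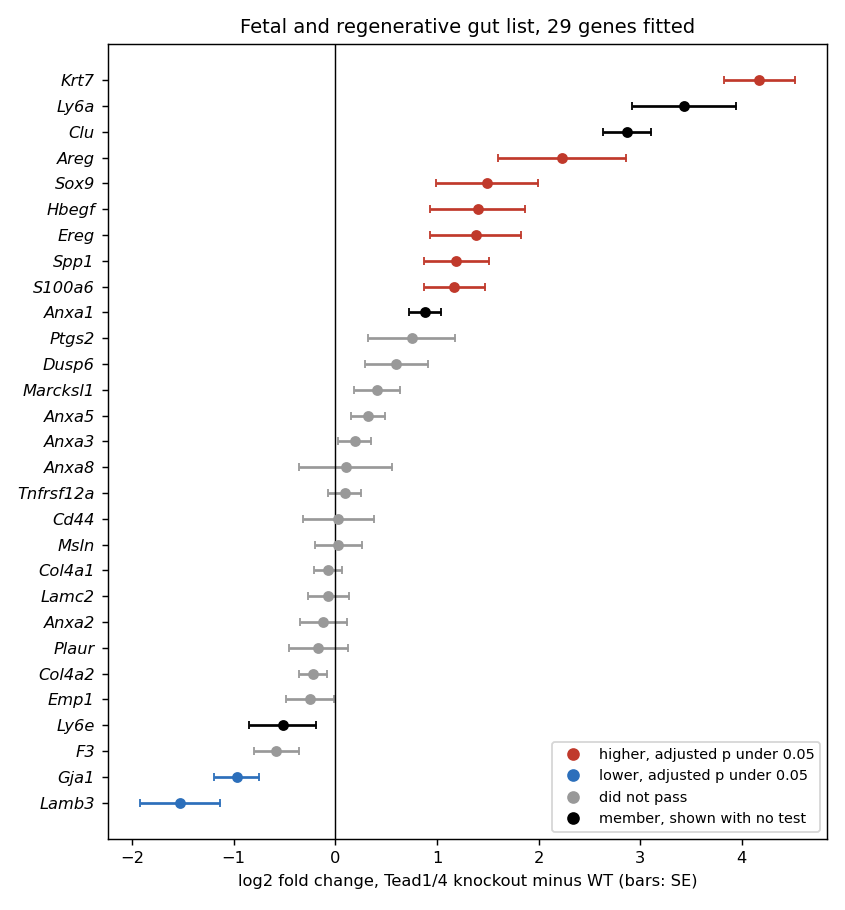
Log2 fold change of 29 fitted genes of the fetal and regenerative list, knockout minus WT, with its SE. Red and blue mark genes past an edgeR adjusted p of 0.05, grey those that did not pass, and black the members, shown with no test. Krt7 (4.17) lies above Ly6a (3.43) and Clu (2.87), and most of the list lies around 0.

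Most other colonocyte genes were at or near 0 in both genotypes. Of 37 listed genes beside Aqp8, 9 were at 0 in every library, among them Car1, a carbonic anhydrase, Guca2b, the uroguanylin gene, and Fabp1, a fatty acid carrier. The defining genes Slc26a3 and Car4 had 4 and 2 counts over the knockout libraries, none of them in KO1, and 0 over WT, and Cdx2 and Hnf4a, transcription factors of the gut, had 0 and 3 counts over the knockout libraries and 5 and 0 over WT. A floor of 3 counts is 0.0873 to 0.110 CPM per library, so at this depth these genes were at or next to the limit of detection. The listed genes other than Aqp8 summed to 200 to 259 CPM in the knockout libraries and 56.5 to 101 CPM in WT.

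Of 9 other colonocyte genes fitted, 5 rose and 4 did not pass (55.6% called, against 41.6% of all rows), with a median log2 fold change of 1.77. A low gene can enter the fit through the 1 genotype that expresses it, so this share is no support for the list. Plac8 was at 114, 128, 163 and 150 CPM in KO1 to KO4, against 12.7, 32.1, 35.3 and 12.8 CPM in WT1 to WT4 (edgeR adjusted p = 0.00111). Its WT libraries split as those of Aqp8 did, but the mean of the 9 fitted genes did not. That mean was -0.75, -0.88, -1.05 and -0.63 in WT1 to WT4, on the log2 scale relative to all libraries. Lgals4, a galectin gene of gut epithelium, was at 6.02 ± 3.43 CPM in the knockout libraries and 0.225 ± 0.113 CPM in WT (log2 fold change 4.71, edgeR adjusted p = 0.00084). Mgam, a brush border enzyme gene, was at 4.07 ± 1.82 CPM in the knockout libraries and 0.740 ± 0.291 CPM in WT (edgeR adjusted p = 0.00258). Cdhr5, a protocadherin gene of microvilli, had 101 counts over the knockout libraries and 2 over WT, all in WT1, or 43.9 times as many after scaling, where counting error alone allows 11.8 to 367 (95% exact interval) (edgeR adjusted p = 0.00228). Cdhr5 passed the filter through the knockout libraries alone, so its direction follows from the filter. Ceacam1, named after its value was seen, rose by 1.77 on the log2 scale (edgeR adjusted p = 0.019). Against the split of Aqp8, WT1 and WT4 were the higher WT libraries for Ceacam1 (4.45, 1.81, 1.38 and 7.49 CPM in WT1 to WT4). The same held for Mgam (0.773, 0.478, 0.573 and 1.14 CPM). Krt20, a keratin gene of differentiated colonocytes, was at 47.4 ± 9.12 CPM in the knockout libraries and 34.6 ± 19.2 CPM in WT, and did not pass (edgeR adjusted p = 0.289).

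**Figure D4:**
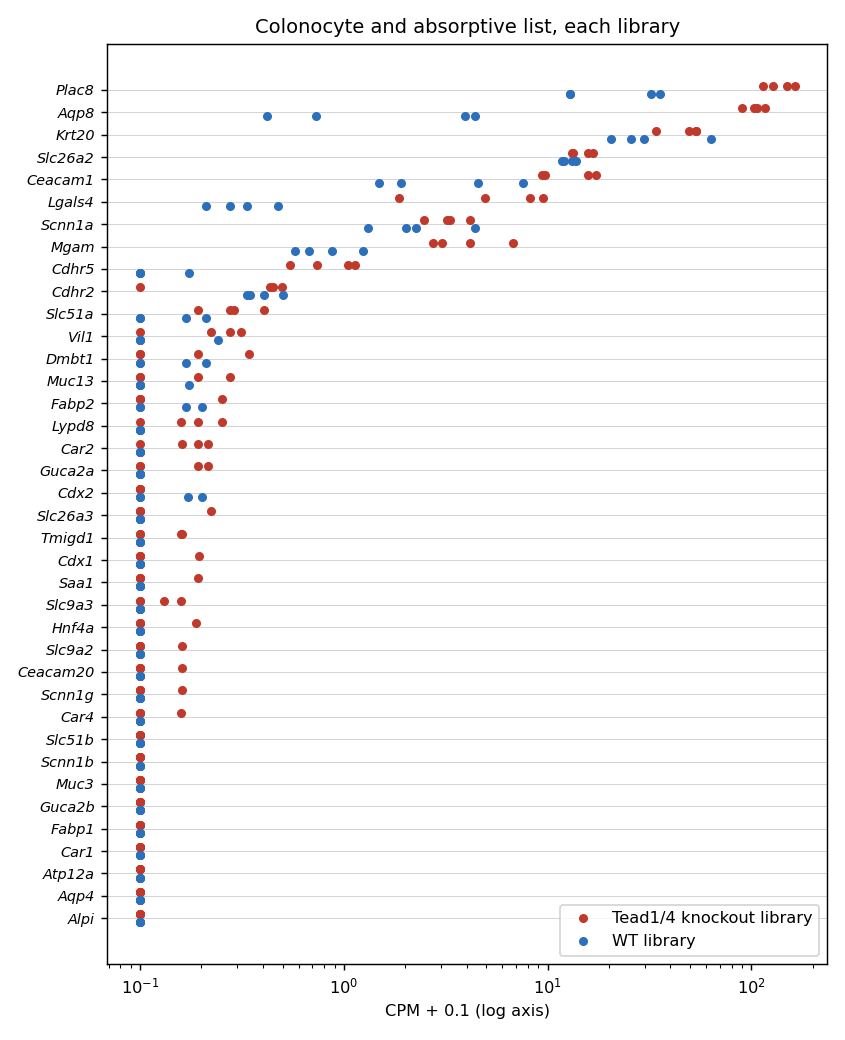
CPM + 0.1 of each colonocyte and absorptive gene on a log axis, 1 point per library, knockout (red) above WT (blue) in each row. Aqp8 and Plac8 stand above 90 CPM in all knockout libraries, and most other genes sit at or next to the left edge, which is a count of 0.

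Stem cell genes of the gut were split between genes at or near 0 and genes at clear levels in both genotypes, and secretory genes were near 0. Lgr5, the defining gene of crypt base stem cells, had 2 counts over the knockout libraries and 0 over WT. Of 20 stem cell genes 10 were fitted, of which 2 rose and 5 fell (70% called, against 41.6% of all rows). The median log2 fold change was -0.53, and it turned to 0.51 with no filter on low counts. Cdca7, a gene of dividing crypt cells, fell to 39.8 ± 13.1 CPM in the knockout libraries, against 111 ± 14.1 CPM in WT (edgeR adjusted p = 0.00141), and Ephb2, a receptor of crypt cells, fell to 36.4 ± 10.5 CPM, against 74.0 ± 10.2 CPM in WT (adjusted p = 0.00474). Lrig1, which restrains growth factor receptors, rose by 1.05 (edgeR adjusted p = 0.00244) and Rgmb by 0.82 (adjusted p = 0.00911) on the log2 scale. The 18 secretory genes summed to 0.537 to 5.66 CPM in the knockout libraries and 0.958 to 1.91 CPM in WT. Of them 2 were fitted and 1 was called (50%, against 41.6% of all rows). This was the tuft cell channel gene Trpm5, which passed at an edgeR adjusted p of 0.0484. Its call was lost without any 1 library but KO1 (adjusted p = 0.0637 to 0.13).

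In the Ly6 and uPAR domain family most relatives were too low to fit. Of 34 counted relatives of Ly6a and Ly6e 7 were fitted, of which 4 rose and 3 did not pass (57.1% called, against 41.6% of all rows). As a low gene can enter through the genotype that expresses it, that share is no support for the family. Lypd5 was at 35.0, 28.2, 49.0 and 53.4 CPM in KO1 to KO4 and at 5.08, 1.37, 2.12 and 5.36 CPM in WT1 to WT4 (log2 fold change 3.57, edgeR adjusted p = 0.000726). Ly6c1, the next protein-coding gene beyond Ly6a on chromosome 15, was at 12.4 ± 3.80 CPM in the knockout libraries and 2.88 ± 1.29 CPM in WT (edgeR adjusted p = 0.00205). Its neighbour Ly6c2 was at 2.49 ± 1.05 CPM in the knockout libraries and 0.225 ± 0.263 CPM in WT (log2 fold change 3.46, edgeR adjusted p = 0.0163, and 4.18 without WT4), with no count in WT2 or WT3. Lynx1, a modulator of acetylcholine receptors in the brain, rose by 0.90 (edgeR adjusted p = 0.00332). Ly6i, between Ly6a and Ly6e, had 14 counts over the knockout libraries and 3 over WT, Ly6d had 20 over the knockout libraries and 2 over WT, and Ly6k had no count; KO1 had no count of Ly6i or Ly6d. Ly6a, Ly6c1, Ly6c2 and Ly6i are similar in sequence, and no source used here gives the treatment of reads that match several genes, which makes their separate levels uncertain.

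Among annexin genes other than Anxa1, 9 were fitted, of which 3 rose and 6 did not pass (33.3% called, against 41.6% of all rows). Their median log2 fold change was 0.32. Anxa4 rose by 0.56 on the log2 scale (155 ± 12.3 CPM in the knockout libraries, 105 ± 13.9 CPM in WT, edgeR adjusted p = 0.0117). Anxa6 had 293 counts over the knockout libraries and 0 over WT, at least 21.1-fold higher against a floor of 3 counts per library (edgeR adjusted p = 0.000578). Anxa6 passed the filter through the knockout libraries alone, so its direction follows from the filter. Anxa7 passed at an edgeR adjusted p of 0.0479, which was lost without any 1 library but KO1 or WT4 (0.0837 to 0.113) and with no filter on low counts (0.0538). Of 3 other aquaporin genes fitted 2 rose (66.7% called, against 41.6% of all rows). Aqp1, a water channel gene of vessels and kidney, was at 66.0, 121, 109 and 109 CPM in KO1 to KO4 and at 13.9, 31.7, 35.3 and 47.5 CPM in WT1 to WT4 (log2 fold change 1.66, SE 0.34, edgeR adjusted p = 0.00507). Aqp5, known from salivary and sweat glands, was at 2.02 ± 0.915 CPM in the knockout libraries and 0.523 ± 0.117 CPM in WT (edgeR adjusted p = 0.00858). By mean CPM, Aqp8 was below Aqp1 in WT (2.27 against 32.1 CPM) and close to it in the knockout libraries (104 against 101 CPM), and these are not scaled by length.

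**Figure D5:**
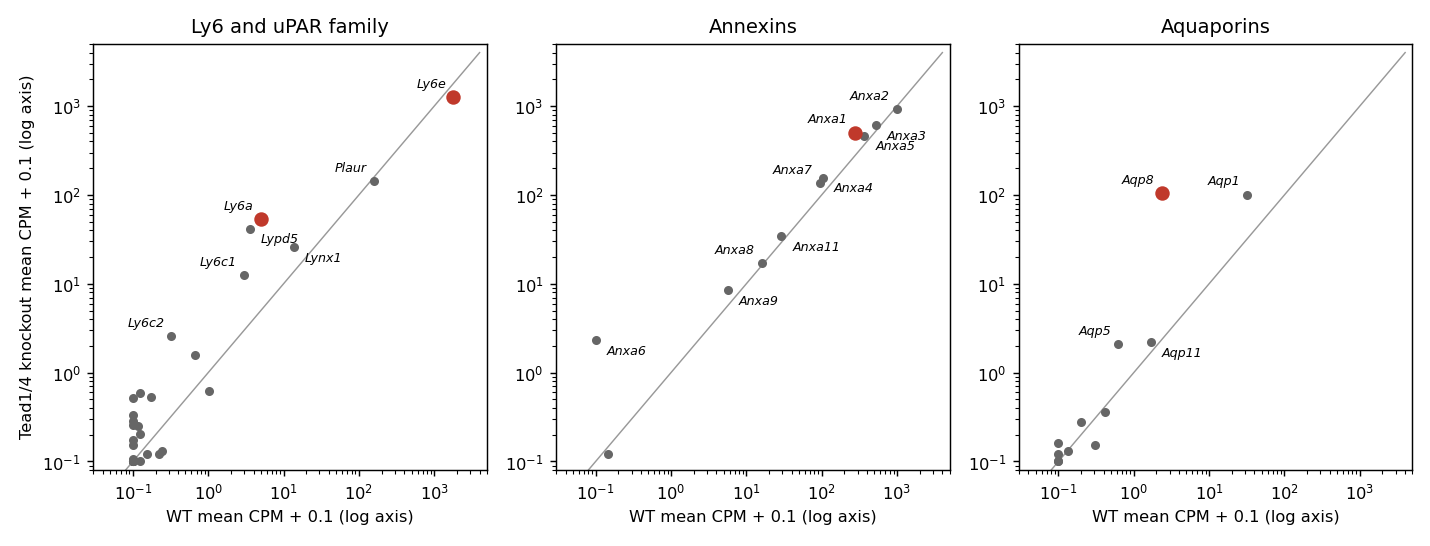
Mean CPM + 0.1 of each counted gene in 3 families, knockout on the vertical and WT on the horizontal log axis, with the line of equality. Larger red points are the members and labels mark genes above 1.5 CPM in the knockout libraries and the members. Aqp8 and Ly6a lie far above the line, Anxa1 a little above it and Ly6e below it.

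Genes for partners and receptors of clusterin and annexin A1 went both ways. Of 12 listed 8 were fitted, with 2 higher and 2 lower (50% called, against 41.6% of all rows). S100a11, whose protein binds the annexin A1 tail, was at 481, 228, 260 and 244 CPM in KO1 to KO4 and at 2810, 507, 373 and 2760 CPM in WT1 to WT4. It passed as lower (log2 fold change -2.41, edgeR adjusted p = 0.0158), but the WT libraries lay far apart, in the pairs named above. Without KO2 the adjusted p was 0.0508, and with WT2 and WT3 as the only WT libraries the log2 fold change was -0.55 (adjusted p = 0.25). Lrp8, a lipoprotein receptor that can bind clusterin, fell to 25.9 ± 12.9 CPM in the knockout libraries, against 116 ± 23.4 CPM in WT (edgeR adjusted p = 0.00169). Cd9, a tetraspanin gene, rose by 1.15 on the log2 scale (adjusted p = 0.00361). Trem2, a receptor gene of myeloid cells, had 170 counts over the knockout libraries and 4 over WT (edgeR adjusted p = 0.00267, log2 fold change 5.06, and 8.33 without WT2, which held all 4). Trem2 passed the filter through the knockout libraries alone, so its direction follows from the filter. The formyl peptide receptor genes Fpr1 and Fpr2 had 13 (none in KO1) and 0 counts over the knockout libraries and 2 and 4 over WT.

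YAP and TEAD target genes, against which the members are often read, showed 4 increases and 3 decreases among 21 fitted (33.3% called, against 41.6% of all rows), with a median log2 fold change of 0.01 (2 increases without KO3, KO4 or WT4). Lats2, a Hippo kinase gene, fell by 0.82 (edgeR adjusted p = 0.00302) and Nppb rose by 3.80 (adjusted p = 0.00321) on the log2 scale. The interferon list showed 29 increases among 30 (96.7% called), such as Ifit3 (55.0 ± 19.9 CPM in the knockout libraries, 1.38 ± 0.845 CPM in WT, edgeR adjusted p = 0.000247). Of 20 mitotic genes 16 fell (80% called), 10 without KO2 or WT1, and 1 with WT2 and WT3 as the only WT libraries. Mki67, a gene of dividing cells, was at 208 ± 128 CPM in the knockout libraries, against 941 ± 397 CPM in WT (edgeR adjusted p = 0.00514, and 0.0564 with WT2 and WT3 as the only WT libraries).

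Ly6a is also expressed by vessels, fibroblasts and blood cells, so markers of those cells are given beside it. Of 13 leukocyte markers 2 were fitted and called higher (100% called, against 41.6% of all rows). These were Cd68 (edgeR adjusted p = 0.00167) and Lyz2 (adjusted p = 0.00855). Lyz2, with 312 counts over the knockout libraries and 29 over WT, entered the fit through the knockout libraries. The list summed to 10.8 to 17.1 CPM in the knockout libraries and 1.79 to 4.12 CPM in WT, and Ptprc, the defining gene of leukocytes, had 2 counts over the knockout libraries and 3 over WT. Of 10 endothelial markers 2, Tie1 and Vwf, were fitted and called higher (100% called, against 41.6% of all rows). Tie1 had 538 counts over the knockout libraries and 10 over WT, all in WT3. Vwf had 740 over the knockout libraries and 14 over WT, in WT2 and WT3. The list summed to 7.84 to 14.9 CPM in the knockout libraries and 0.0736 to 1.05 CPM in WT. Pecam1, which defines endothelium, had 6 counts over the knockout libraries and 5 over WT, and Kdr had none. Tie1 and Vwf passed the filter through the knockout libraries alone, so that the fitted markers were higher follows from the filter, and at a minimum of 5 CPM in 4 libraries neither was fitted. Of 10 fibroblast markers 4 were fitted and called higher (100% called, against 41.6% of all rows). Among them was Pdgfra (35.9 ± 8.43 CPM in the knockout libraries, 8.01 ± 2.72 CPM in WT, edgeR adjusted p = 0.000837). Dcn, with 1047 counts over the knockout libraries and 4 over WT, passed the filter through the knockout libraries alone, so its direction follows from the filter. Of the fibroblast markers not fitted, Thy1 had 2 counts over the knockout libraries and 2 over WT, and Acta2 had 12 and 6. Fbln1 had 3 and 0, Col6a3 28 and 7, Lum 36 and 0, and Fap 169 and 4. KO1 had no count of these genes except Fap. The fibroblast list summed to 124 to 194 CPM in the knockout libraries and 47.2 to 80.2 CPM in WT. The WT values of Pdgfra were 5.34, 10.4, 10.3 and 6 CPM in WT1 to WT4, the same split as for Ly6a. Pdgfrb shared this split (23, 56.1, 55.2 and 24.7 CPM), but Pdpn did not (24.5, 13.6, 10 and 16 CPM). Dcn had WT counts in WT4 only. The mean log2 level of the 4 fitted markers, relative to all libraries, was -1.53, -1.18, -1.30 and -1.29 in WT1 to WT4, without those pairs. Of 14 fitted mesenchymal genes 2 rose and 1 fell (21.4% called, against 41.6% of all rows). Col3a1 and Pdgfrb rose and Cdh2 fell (edgeR adjusted p = 0.0152, 0.026 and 0.00813). The list summed to 7070 to 7910 CPM in the knockout libraries and 5790 to 7240 CPM in WT. Pdgfrb, which is also on the fibroblast list, lost its call without KO2, KO3, KO4, WT1 or WT4 (adjusted p = 0.0521 to 0.0759), and with each library left out in turn 1 to 3 mesenchymal genes rose and 1 to 4 fell. The part of the fibroblast, endothelial and mesenchymal markers in the level of Ly6a was not tested.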

How the data were processed

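Messenger RNA libraries from CT26 cells, 4 with a Tead1/4 knockout and 4 WT, were grouped by the sample titles. The authors deposited whole-number counts per gene, in 2 tables with the same values, of which the one with symbols was used; 4606 of its 26642 rows have no Ensembl ID. Per the submitters' processing notes, HISAT2, StringTie and GRCm38 were used, in versions they leave out. The counting program, its use of strand and its treatment of multiply aligned reads were not given in the sources used here. Rows were filtered with filterByExpr (minimum count 10, minimum total 15), TMM-scaled and fitted with edgeR 4.0.16 (quasi-likelihood, R 4.3.3), knockout minus WT, two-sided, with Benjamini-Hochberg adjustment over all rows and a threshold of 0.05. Intervals and floors (3 counts) cover counting error only. Gene lengths and positions come from GENCODE M21. The members were picked by symbol. The members, gene lists, alternatives and named-gene rule (up to 4 called genes of each list with the smallest p, and 3 genes most like each member) were chosen with earlier results of these data known. Alternatives were DESeq2 1.42.0, limma-voom (limma 3.58.1), 3 scalings, 2 filters, the replicate block, each library left out and, added after seeing the data, either WT pair left out and annotated genes only. Scripts were tested on simulated counts.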

Additional observations from a re-analysis of the deposited data

Results flagged for a closer look

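In groups of 4 libraries, 15 of 134 groups of the members and named genes had 1 library far from the other 3 (chance flags about 1 group in 20), and no member did. KO1 was that library 9 times: Gja1 at 133 CPM (66.6 to 77.7 in the other knockout libraries), Sox9 at 10.9 (25.8 to 27.3), Cdca7 at 59.5 (32.6 to 33.8), Ephb2 at 52 (29.8 to 32.9), Rgmb at 35.5 (60.6 to 61.8), Cd9 at 369 (516 to 539), S100a11 at 481 (228 to 260), Ifih1 at 53.4 (66.6 to 68.7) and Crim1 at 195 (360 to 385). KO4 was low for Cd68 at 8.77 CPM (11.8 to 12.3). Among WT libraries, WT2 was high for Ly6c1 at 4.81 CPM (2.13 to 2.29). The remaining 4 were low genes with counts in 1 WT library and 0 in the other 3: Cdhr5 in WT1 (0.0736 CPM), Trem2 in WT2 (0.137), Dcn in WT4 (0.142) and Tie1 in WT3 (0.337).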

How the results depend on the processing

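Under all 11 alternatives other than leaving out 1 library, and with each library left out, Ly6a, Clu, Anxa1 and Aqp8 stayed higher in the knockout libraries. With WT1 and WT4 as the only WT libraries the log2 fold changes of Ly6a, Anxa1 and Aqp8 were 4.49, 1.08 and 7.76. With WT2 and WT3 as the only ones that of Anxa1 was 0.68, that of Ly6e turned to 0.08, and 3085 rows were called (1792 higher, 1293 lower) in place of 5513 (2779 and 2734). With 1 library left out, the rows called ranged from 3809 to 6829, those higher from 2041 to 3420 and those lower from 1768 (without KO3) to 3409. Upper-quartile factors or library size only moved the median of all rows to 0.20 and the share of calls that were higher to 64.6% and 63.5%, in place of 50.4%.

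The counts in this paragraph include the members where they are on a list. Counted that way, the fit of all 8 libraries called 10 higher and 2 lower in the fetal list. It called 6 higher colonocyte genes, and 5 higher and 0 lower in the Ly6 family. With WT1 and WT4 as the only WT libraries, the genes called were 5 higher in the fetal list, 1 lower in the Ly6 family, 2 higher among YAP targets and 4 lower in the mesenchymal list. With WT2 and WT3 as the only ones they were 1 lower in the fetal list, 1 higher and 3 lower among stem cell genes, 0 secretory, 1 lower among partners, 1 lower among mitotic genes, 2 higher epithelial, and 1 higher and 0 lower mesenchymal. A minimum of 5 CPM in 4 libraries, which fits fewer low genes, gave 1 lower in the fetal list, 3 higher colonocyte, 0 secretory, 1 higher partner, 1 higher leukocyte and 0 endothelial. No filter gave 0 secretory and 9 higher in the Ly6 family. The secretory count was also 0 with limma-voom and the block. The epithelial count was 2 with upper-quartile factors, library size only, DESeq2, limma-voom and annotated genes only. With 1 library left out, the counts higher ranged from 6 to 12 (fetal), 0 to 2 (secretory), 2 to 5 (YAP targets), 1 to 2 (epithelial) and 1 to 3 (mesenchymal), and those lower from 1 to 2 (partners), 10 to 20 (mitotic) and 1 to 4 (mesenchymal). With WT2 and WT3 as the only WT libraries Gja1, Rgmb, Aqp5, Mki67 and Cdh2 no longer passed (edgeR adjusted p = 0.0534 to 0.0715), nor did Spp1 with WT1 and WT4 (0.0863). The causes were not tested.

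Replicate numbers are shared between the genotypes, but same-numbered libraries did not deviate together over all fitted rows (correlations -0.02, -0.02, -0.01 and -0.03). The labels do not say what the numbers stand for, and a smaller shared effect could be missed by these correlations. With the replicate number as a block 4683 rows were called, and the members stood at 3.54 (Ly6a), -0.46 (Ly6e), 2.91 (Clu), 0.90 (Anxa1) and 5.98 (Aqp8). Among the named genes the block ended the calls of Hbegf (edgeR adjusted p = 0.0577), Anxa7 (0.0627), Bmi1 (0.0632) and Trpm5 (0.0769). Wwtr1, which did not pass, stood between -0.05 (without WT3) and 0.18 (without WT4) with 1 library left out, at 0 without WT2, and at -0.21 without WT2 and WT3. The TEAD letters in both promoters lie outside the 100 bases before the start. At this depth, genes under about 0.1 CPM cannot be compared.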
